A study of Mus musculus with 12 samples.

Results

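The genes described here are 10 regulators of the circadian clock: the heme-binding nuclear receptor genes Nr1d1 and Nr1d2, the period genes Per1, Per2 and Per3, the cryptochrome genes Cry1 and Cry2, the activator genes Clock and Arntl, and the output gene Dbp. They were chosen by name, with earlier results of these data known, and all 10 were found among the 25097 genes of each table. RNA was sequenced from G1E-ER-GATA-1 cells, mouse erythroid precursors that lack their own GATA-1 and carry instead a GATA-1 protein joined to an estrogen receptor domain, which beta-estradiol activates. The 12 libraries formed 4 groups of 3: untreated wild-type (WT) cells, WT cells with 1 µM beta-estradiol for 48 h, mutant cells with the same estradiol treatment, and mutant cells with estradiol and 1 mM 5-aminolevulinic acid (5-ALA) for 48 h. In the mutant, called a double mutant in the labels, cis-elements of Alas2 are altered. The Alas2 enzyme makes 5-ALA, the first precursor of heme in red cells, and 5-ALA given in the medium enters the pathway after that step. Every group was grown with erythropoietin, medium conditioned by a CHO line that makes Kit ligand, and puromycin. There is no library of mutant cells without estradiol, so a difference already present before estradiol cannot be told apart from one that arose during maturation. The number of mutant lines, the hour of harvest, the time the untreated cells were kept and whether the 3 libraries of a group came from separate cultures are not stated in the labels. P-values therefore measure only the spread between these libraries, which may be technical.

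The mammalian clock is a feedback loop of transcription. CLOCK and BMAL1, the product of Arntl, bind E-boxes as a pair and activate the Per, Cry, Nr1d and Dbp genes, and PER and CRY proteins then inhibit the pair. The receptors NR1D1 and NR1D2, also called REV-ERB alpha and beta, take heme as their ligand. With heme bound they recruit the corepressor NCOR1 and the deacetylase HDAC3, and they repress Arntl through response elements that they share with the activating ROR receptors. DBP activates genes with D-boxes, among them Per genes. PER2 and the CLOCK relative NPAS2 have also been described as heme-binding.

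The libraries held 20309085 to 43548387 expected counts, and 12115 genes had enough counts to be tested, 9 of the 10 clock genes among them. Alas2 followed the labels, with 5.12 ± 0.767, 4293 ± 15.1, 7.64 ± 2.20 and 12.3 ± 0.237 CPM in the 4 groups in the order above (counts scaled by library size, CPM, mean ± SD, n = 3, as for every CPM mean below). The heme-responsive gene Hmox1, which encodes heme oxygenase 1, stood at 11.1 ± 0.245, 276 ± 3.08, 26.4 ± 0.370 and 149.7 ± 6.65 CPM. Each of 8 erythroid markers was detected in all groups, and their summed level was 1011 to 1034 CPM in untreated WT cells and 57229 to 57944, 17778 to 18392 and 54519 to 57656 CPM in the later groups. Summed mast cell markers (6 genes) were at 139 to 155 CPM in untreated cells, mostly Cpa3, with Fcer1a, Mcpt8 and Cma1 at 0, and at 0.912 to 3.26 CPM in the 3 estradiol groups. Summed megakaryocyte markers (6 genes) were at 89.8 to 94.2 CPM in untreated WT cells, 31.1 to 32.7 in WT cells with estradiol, 13.8 to 14.8 in mutant cells and 22.4 to 23.2 with 5-ALA. The sum was mostly Itga2b and Pf4, at 60.8 and 28.4 CPM in untreated WT cells and 21.2 and 2.37 CPM with estradiol. In the same WT cells Gp9 and Vwf went the other way, from 0.728 to 3.34 and from 2.44 to 4.73 CPM. Gp1bb had a mean of 0 CPM in every group. Markers of granulocytes and macrophages, lymphocytes, and fibroblasts each summed to at most 11.7 CPM, the highest being Pdgfrb among the fibroblast genes. The part of such cells or cell states in the differences below was not tested, and in bulk RNA fewer cells of a type and less RNA per cell cannot be told apart.

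Cry1, the gene of cryptochrome 1, had an expected count of 0 in all 12 libraries. Over 370059911 counts in all, this allows a level of up to 0.00811 CPM (3 counts, counting error only). Cry1 was listed in the reference used for counting, with 1 transcript of 3014 bases. Neither the labels nor the tables show whether reads of it were lost in counting. This limit therefore holds for the counts as made and may not bound its expression. It is 1 of 6328 genes at 0 throughout. The gene lies on chromosome 10 (mm10, 85131700 to 85185064, minus strand, protein-coding). Of its neighbours, Mterf2 was detected in every library at 5.90 to 11.2 CPM, and Btbd11, on the other side, reached at most 0.163 CPM. No test or fold change can be given for Cry1, and the cryptochrome data below are those of Cry2.

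Per length, the 9 detected genes ranged from 1.90 to 19.4 TPM in untreated WT cells, where the median of all tested genes was 17.9 TPM. Cry2, the gene of cryptochrome 2, stood highest at 19.4 ± 0.786 TPM. Next came Nr1d2 (10.8 ± 0.374), Dbp (10.2 ± 0.866), Per1 (9.99 ± 1.01) and Arntl (9.60 ± 0.139 TPM), and each of these overlapped its neighbour in the order. Below them stood Per2 (7.54 ± 0.511), Clock (4.69 ± 0.0586), Per3 (3.42 ± 0.0600) and Nr1d1 (1.90 ± 0.155 TPM), with no overlap between neighbours. In WT cells with estradiol the order was led by Nr1d2 at 44.0 ± 1.61 TPM, above Cry2 at 30.3 ± 0.645 and Per1 at 14.7 ± 0.367 TPM, again without overlap. Per2 (0.620, 0.770 and 0.810 TPM) and Nr1d1 (0.683 ± 0.0808 TPM) stood lowest there and overlapped. In both mutant groups Nr1d2, Cry2, Per1 and Dbp were the highest in that order, at 34.7 ± 1.80, 27.0 ± 1.03, 16.0 ± 0.455 and 10.6 ± 0.694 TPM without 5-ALA, with no overlap between neighbours in either group.

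**Figure D1:**
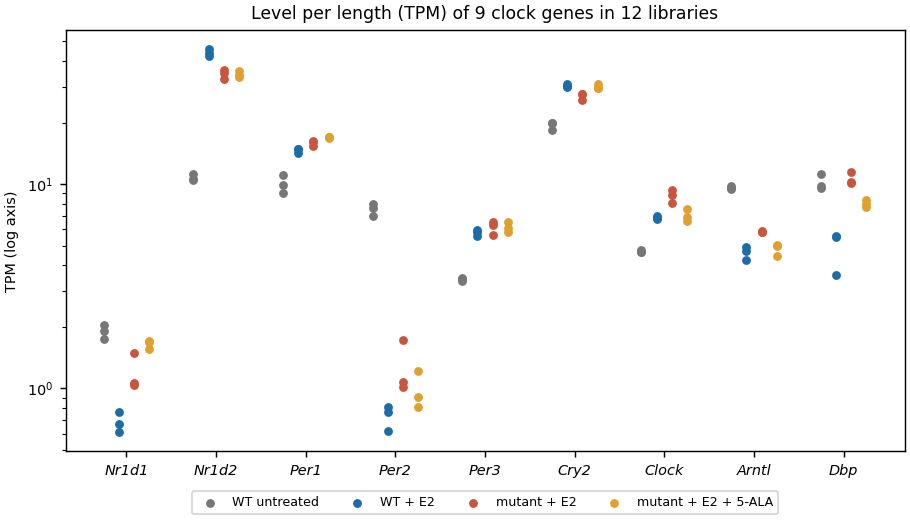
Level per length (TPM, log axis) of the 9 detected clock genes, 1 point per library and 1 colour per group (E2, beta-estradiol). Nr1d2 goes from 10.8 TPM in untreated WT cells to 44.0 TPM in WT cells with estradiol, while Per2 goes from 7.54 to 0.733 TPM.

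Promoters are shown for 4 of these genes: Nr1d2, which had the largest rise among them with estradiol, Per1 and Per3, which rose together, and Arntl, which fell. Each is 250 bases before to 50 after an annotated start site, from RefSeq (GRCm38.p6), written 5′ to 3′ on the gene's strand. Capitals mark matches, on either strand, to the E-box CACGTG, the D-box TTATGNAA, the core of the NR1D and ROR response element with 1 base before it, NAGGTCA, and the GATA site NGATAA. No matches overlapped.
Nr1d2 (chr14:18239057-18239356, minus strand): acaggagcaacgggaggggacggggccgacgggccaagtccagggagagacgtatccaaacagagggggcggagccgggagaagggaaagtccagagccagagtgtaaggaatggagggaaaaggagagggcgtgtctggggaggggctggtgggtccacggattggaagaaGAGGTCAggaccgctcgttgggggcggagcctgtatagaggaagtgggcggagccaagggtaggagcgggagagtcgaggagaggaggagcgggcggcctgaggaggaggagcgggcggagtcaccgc
Arntl (chr7:113207261-113207560, plus strand): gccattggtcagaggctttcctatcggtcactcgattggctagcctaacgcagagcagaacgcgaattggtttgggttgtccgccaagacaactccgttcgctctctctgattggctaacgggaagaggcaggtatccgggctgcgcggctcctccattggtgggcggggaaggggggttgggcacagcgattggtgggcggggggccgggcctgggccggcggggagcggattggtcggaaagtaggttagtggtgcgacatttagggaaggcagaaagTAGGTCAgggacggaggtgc
Per1 (chr11:69098699-69098998, plus strand): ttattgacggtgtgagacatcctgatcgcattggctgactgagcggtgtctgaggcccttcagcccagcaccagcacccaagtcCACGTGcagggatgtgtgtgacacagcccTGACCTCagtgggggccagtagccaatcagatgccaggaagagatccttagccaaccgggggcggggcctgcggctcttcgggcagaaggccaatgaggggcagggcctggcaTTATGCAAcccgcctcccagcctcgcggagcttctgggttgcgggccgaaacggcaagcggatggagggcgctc
Per3 (chr4:151044616-151044915, minus strand): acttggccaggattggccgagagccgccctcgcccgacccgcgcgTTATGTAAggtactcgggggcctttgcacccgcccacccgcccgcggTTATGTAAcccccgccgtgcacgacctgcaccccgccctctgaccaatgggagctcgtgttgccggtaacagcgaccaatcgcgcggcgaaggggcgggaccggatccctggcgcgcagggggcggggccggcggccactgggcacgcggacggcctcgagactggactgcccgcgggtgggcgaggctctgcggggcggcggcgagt
The Per3 promoter held the D-box in 2 places, starting 205 and 158 bases before the start site, and the Per1 promoter held it once, 24 bases before it. A D-box was in 3.38% of all 32851 promoters of this length. The E-box was in 7.15% of all promoters and, among the 9 clock genes with a promoter in the table, in those of Per1 and Cry1. The receptor core motif was in 16.2% of all promoters and in those of Nr1d2, Arntl, Per1 and Clock. In Arntl it began 31 bases into the transcript, in the second of 2 listed promoters, and in Nr1d2 it began 78 bases before the start. The GATA site was in 25.3% of all promoters and, among the clock genes, in the other promoter of Per1. The promoters of Nr1d1, Dbp and Cry2 held no match to any of these motifs, and Per2 had no listed promoter. A match describes the letters of the window and is not a bound site. Its part in any difference below was not tested.

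Estradiol-treated and untreated WT cells were compared first, to see how clock genes differ with GATA-1 activated. The hour of harvest and the time the untreated cells were kept are not stated. A difference in clock time between groups therefore cannot be told apart from a response to the treatment, here or in the later comparisons. The receptor gene Nr1d2 rose 5.20-fold while its relative Nr1d1 fell 2.31-fold, and Per2 fell 8.51-fold while Per1 and Per3 rose 2.12-fold and 2.20-fold. Cry2 and Clock rose 1.93-fold and 1.78-fold, and Arntl and Dbp fell 1.69-fold and 1.87-fold. All 9 tested clock genes were called, 5 higher and 4 lower, by the edgeR quasi-likelihood test at an adjusted p below 0.05. That share is close to the background, since 89.7% of all genes tested were called, 43.3% higher and 46.4% lower. The libraries of the groups did not overlap for any of the 9, as for 90.2% of all genes. All calls held on the log2(TPM + 1) scale, where the median of all genes moved by -0.272 and Per1, Per3, Cry2, Clock and Nr1d1 had smaller values of 0.52, 0.62, 0.62, 0.47 and -0.78. The median log2 fold change was 0.84 over the 9 genes, which is the value of Clock, the smallest rise. Over all genes it was -0.03, with quartiles of -1.33 and 1.09.

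Nr1d1 (chromosome 11, 98767932 to 98775333, minus strand) had 2.77, 2.49 and 3.03 CPM in untreated WT cells and 1.08, 1.36 and 1.17 CPM with estradiol. The libraries did not overlap (log2 fold change -1.21, SE 0.171, adjusted p = 1.64e-07). Its counts were low, between 26 and 118 per library. Exons of Nr1d1 overlap those of Thra, a thyroid hormone receptor gene on the opposite strand, by 263 bases in the annotation, and whether counting used the strand is not stated in the labels. Thra was more abundant, at 16.0 ± 0.124 CPM without and 15.7 ± 0.489 CPM with estradiol, and was not called (adjusted p = 0.722). On the log2(TPM + 1) scale, where the median of all genes moved by -0.272, Thra was called lower (-0.28, limma adjusted p = 0.000718).

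Nr1d2 (chromosome 14, 18204054 to 18239127, minus strand), whose promoter with its receptor core motif is printed above, had 23.9, 24.7 and 24.7 CPM in untreated cells and 123, 126 and 131 CPM with estradiol. The groups lay far apart, with a log2 fold change of 2.38 (SE 0.0349, adjusted p = 2.09e-31). Thus the 2 receptor genes went in opposite directions.

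The period genes encode the inhibitory arm of the loop and also parted. Per2 (chromosome 1, 91415982 to 91459324, minus strand) had 24.1, 24.7 and 22.4 CPM without and 2.38, 2.93 and 3.11 CPM with estradiol (log2 fold change -3.09, SE 0.0956, adjusted p = 5.02e-23). This was the largest change among the clock genes. Per1 (chromosome 11, 69095217 to 69109960, plus strand) went from 18.4, 19.6 and 18.9 CPM to 39.9, 41.1 and 39.5 CPM (log2 1.09, SE 0.0434, adjusted p = 3.69e-20). Per3 (chromosome 4, 151003652 to 151044665, minus strand) went from 9.30, 9.07 and 9.01 CPM to 20.9, 19.0 and 20.3 CPM (log2 1.14, SE 0.0628, adjusted p = 1.45e-16). For neither gene did the groups overlap. Cry2 (chromosome 2, 92403646 to 92434043, minus strand) rose from 40.3, 40.0 and 38.2 CPM to 75.4, 75.6 and 78.4 CPM (log2 0.95, SE 0.0347, adjusted p = 3.50e-21).

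The partners of the activating pair moved apart. Clock (chromosome 5, 76209868 to 76304792, minus strand) had 19.2, 18.5 and 19.1 CPM without and 33.7, 34.5 and 33.4 CPM with estradiol (log2 0.84, SE 0.0515, adjusted p = 2.23e-15). Arntl (chromosome 7, 113207465 to 113314126, plus strand) had 14.8, 14.5 and 15.5 CPM without and 9.37, 8.89 and 8.10 CPM with it (log2 -0.76, SE 0.0700, adjusted p = 2.90e-11). Every estradiol library was thus higher for Clock and lower for Arntl than every untreated one. Dbp (chromosome 7, 45705088 to 45710203, plus strand), the D-box activator, fell from 5.40, 5.31 and 6.16 CPM to 3.33, 3.10 and 2.52 CPM (log2 -0.90, SE 0.113, adjusted p = 1.71e-08). Its exons overlap those of Sphk2, a sphingosine kinase gene on the opposite strand, by 539 bases in the annotation. Sphk2 went the other way, from 24.6 ± 1.62 to 49.8 ± 2.10 CPM (adjusted p = 3.30e-08).

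**Figure D2:**
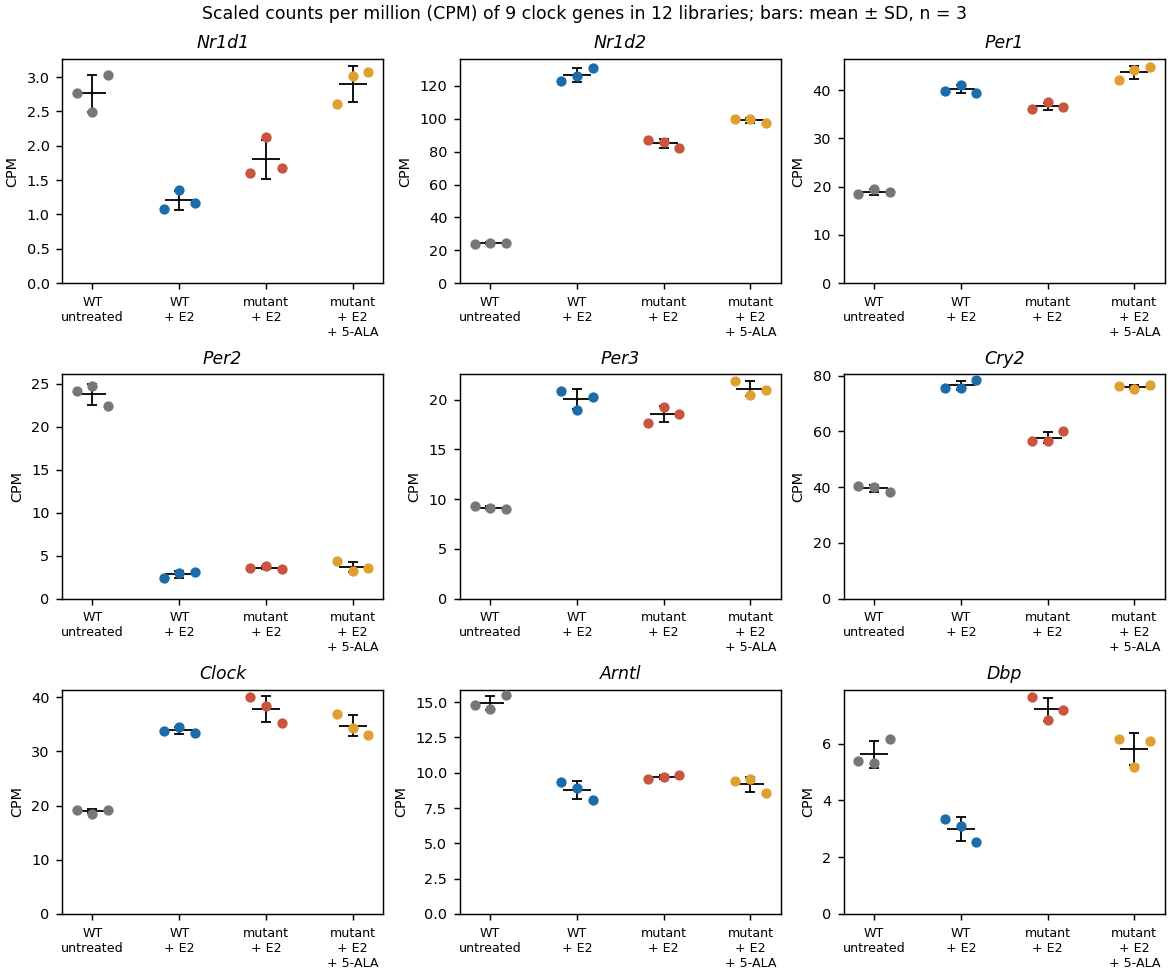
Scaled counts (CPM, linear axes from 0) of the 9 detected clock genes in the 12 libraries, with the mean ± SD of each group of 3 (E2, beta-estradiol). Nr1d1 and Nr1d2 move in opposite directions with estradiol, Per2 falls from 23.7 to 2.81 CPM, and Cry2 is lower in mutant cells without 5-ALA than in both other estradiol groups.

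Mutant and WT cells, both treated with estradiol, were compared next, to see what differs when Alas2 expression is lost. Dbp was 2.37-fold higher and Nr1d1 1.53-fold higher in mutant cells, and Nr1d2 and Cry2 were 1.49-fold and 1.32-fold lower. Per2 was 1.30-fold and Clock 1.11-fold higher. Of the 9 tested genes 4 were called higher and 3 lower, where 68.8% of all genes tested were called, 35.1% higher and 33.6% lower. The libraries did not overlap for 8 of the 9 and for 71.7% of all genes. The median log2 fold change was 0.14 over the 9 genes and -0.01 over all genes (quartiles -0.36 and 0.34). In CPM, the mutant libraries lay between the untreated and the estradiol-treated WT libraries for 6 of the 9 genes. These were Nr1d1, Nr1d2, Per1, Per2, Cry2 and Arntl. The mutant libraries lay above both for Clock and Dbp, and for Per3 they overlapped WT libraries with estradiol. The share of all genes in each position was not computed, so these counts are not a result about clock genes. Per level, the position depends on the scale. In TPM, Per1 had 16.3, 16.1 and 15.4 in mutant cells, above the 14.3, 14.9 and 14.9 of WT cells with estradiol.

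Dbp had 7.64, 6.83 and 7.18 CPM in mutant cells against 3.33, 3.10 and 2.52 CPM in WT cells, with no overlap (log2 1.25, SE 0.111, adjusted p = 3.71e-11). Its overlapping neighbour Sphk2 was also higher, at 70.3 ± 1.95 against 49.8 ± 2.10 CPM (log2 0.50). Nr1d2 had 87.2, 85.9 and 82.2 CPM against 123, 126 and 131 CPM (log2 -0.58, SE 0.0300, adjusted p = 1.69e-16). Cry2 had 56.4, 56.7 and 60.1 CPM against 75.4, 75.6 and 78.4 CPM (log2 -0.40, SE 0.0335, adjusted p = 8.70e-12). The calls of these 3 genes held in every alternative run, with smaller sizes on the log2(TPM + 1) scale (1.00 for Dbp, -0.34 for Nr1d2 and -0.16 for Cry2).

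Nr1d1 had 1.61, 2.13 and 1.67 CPM in mutant cells against 1.08, 1.36 and 1.17 CPM (log2 0.61, SE 0.182, adjusted p = 0.00395). The groups did not overlap, but without mutant replicate 2 the edgeR adjusted p was 0.0592, and on the log2(TPM + 1) scale the value was 0.38. Per2 had 3.60, 3.79 and 3.41 CPM against 2.38, 2.93 and 3.11 CPM (log2 0.38, SE 0.122, adjusted p = 0.00750). Its call was lost without WT estradiol replicate 1 (adjusted p = 0.0794 by edgeR). Clock had 40.0, 38.3 and 35.2 CPM against 33.7, 34.5 and 33.4 CPM (log2 0.15, SE 0.0483, adjusted p = 0.00638), a small difference without overlap.

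Per1 had 36.1, 37.5 and 36.5 CPM in mutant cells against 39.9, 41.1 and 39.5 CPM, a log2 fold change of -0.13 (adjusted p = 0.00616) that turned to 0.11 on the log2(TPM + 1) scale. That scale moved the median of all genes by 0.189 in this comparison. The call was also lost in edgeR without WT estradiol replicate 2 (adjusted p = 0.0652), without mutant replicate 1 (0.0598) and with no filter on low counts (0.0963). Per3 had 17.7, 19.3 and 18.6 CPM and Arntl 9.58, 9.67 and 9.85 CPM in mutant cells, with log2 fold changes of -0.11 and 0.14 that did not pass the test (adjusted p = 0.103 and 0.101). For Per3 the sign turned on the TPM scale (0.08), and Arntl was called higher there (log2 0.29, limma adjusted p = 0.00146) and in edgeR without WT estradiol replicate 1 (adjusted p = 0.0456).

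**Figure D3:**
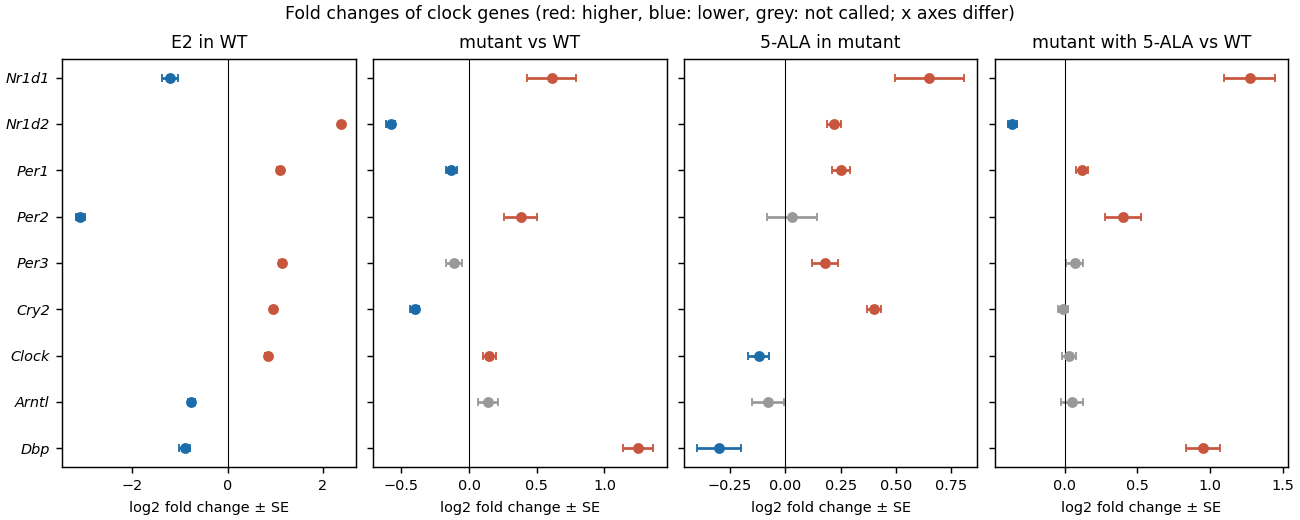
Log2 fold changes (± SE, horizontal axes differ between panels) of the 9 tested clock genes in the 4 comparisons, with genes called higher in red, called lower in blue and not called in grey (E2, beta-estradiol). The 2 receptor genes part in the first, second and last panels, and both are higher with 5-ALA in mutant cells.

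The third comparison, mutant cells with estradiol and 5-ALA against mutant cells with estradiol alone, asks which differences follow when heme synthesis is supplied past the Alas2 step. Both receptor genes were higher with 5-ALA, Nr1d1 1.57-fold and Nr1d2 1.17-fold, and Cry2 was 1.32-fold higher. Per1 and Per3 were 1.19-fold and 1.13-fold higher, and Dbp was 1.23-fold lower. Of the 9 tested genes 5 were called higher and 2 lower, where 42.6% of all genes tested were called, 21.6% higher and 21.0% lower. The libraries did not overlap for 7 of the 9 and for 49.1% of all genes. On the log2(TPM + 1) scale 2 of the 9 were called higher, Nr1d1 and Cry2, and 3 lower, Clock (-0.29), Arntl (-0.24) and Dbp (-0.36). The median log2 fold change was 0.18 over the 9 genes and 0.01 over all genes (quartiles -0.15 and 0.17). This comparison shares the mutant libraries with the second one, so opposite signs in both are partly built in.

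Nr1d1 reached 2.60, 3.01 and 3.08 CPM with 5-ALA against 1.61, 2.13 and 1.67 CPM without it (log2 0.65, SE 0.157, adjusted p = 0.00115). Thra, which overlaps it, was higher too, at 18.4 ± 0.582 against 15.5 ± 0.946 CPM (log2 0.25, adjusted p = 0.00115), though not on the TPM scale (0.03). Cry2 reached 76.3, 75.2 and 76.5 CPM against 56.4, 56.7 and 60.1 CPM (log2 0.40, SE 0.0332, adjusted p = 5.45e-11). Both calls held in every alternative run, with smaller sizes of 0.28 for Nr1d1 and 0.15 for Cry2 on the log2(TPM + 1) scale. Neither gene's groups overlapped. Nr1d2 had 97.4 to 100.1 CPM against 87.2, 85.9 and 82.2 CPM (log2 0.22, SE 0.0304, adjusted p = 6.71e-07), but -0.01 (limma adjusted p = 0.931) on the log2(TPM + 1) scale, where the median of all genes moved by -0.194.

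Per1 had 42.2, 44.1 and 44.9 CPM with 5-ALA against 36.1, 37.5 and 36.5 CPM (log2 0.25, SE 0.0397, adjusted p = 6.75e-06), and log2 0.08 (limma adjusted p = 0.275) on the TPM scale. Per3 had 21.9, 20.5 and 21.0 CPM against 17.7, 19.3 and 18.6 CPM (log2 0.18, adjusted p = 0.0120). Its call was lost in edgeR without mutant replicate 1 (adjusted p = 0.0719), without 5-ALA replicate 1 (0.0569) and with no low-count filter (0.0521), and in limma on the TPM scale (0.995). The calls of Per1 and Per3, like that of Nr1d2, were thus lost on that scale. Per2 did not pass the test, with 4.33, 3.15 and 3.58 CPM against 3.60, 3.79 and 3.41 CPM (log2 0.03, adjusted p = 0.896).

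Dbp had 6.17, 5.17 and 6.09 CPM with 5-ALA against 7.64, 6.83 and 7.18 CPM (log2 -0.30, SE 0.0984, adjusted p = 0.0142), and the call was lost without 5-ALA replicate 2 (edgeR adjusted p = 0.0861). Clock had 36.9, 34.3 and 33.1 CPM against 40.0, 38.3 and 35.2 CPM, and these groups overlapped. It passed the edgeR threshold narrowly (log2 -0.12, adjusted p = 0.0474) and did not pass it with DESeq2 (adjusted p = 0.0873), with only the 2 groups in the edgeR fit (0.0637), or without mutant replicate 1 (0.137), mutant replicate 2 (0.154), 5-ALA replicate 2 (0.0965) or 5-ALA replicate 3 (0.174). Arntl had 9.41, 9.53 and 8.57 CPM against 9.58, 9.67 and 9.85 CPM and was not called (log2 -0.08, adjusted p = 0.380), whereas on the log2(TPM + 1) scale it was lower (-0.24, limma adjusted p = 0.00625).

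The last comparison, mutant cells with estradiol and 5-ALA against WT cells with estradiol, asks what still differed with 5-ALA present. Nr1d1 was 2.40-fold higher (log2 1.27, SE 0.173, adjusted p = 2.26e-07) and Dbp 1.93-fold higher (log2 0.95, SE 0.115, adjusted p = 2.71e-08), while Nr1d2 was 1.28-fold lower (log2 -0.36, SE 0.0297, adjusted p = 1.36e-11). Cry2 differed by a log2 fold change of -0.01 (SE 0.0327, adjusted p = 0.867), with 76.0 ± 0.671 CPM against 76.5 ± 1.72 CPM. Thus Nr1d1, at 2.89 ± 0.260 CPM against 1.20 ± 0.146 CPM in WT cells with estradiol, lay further from WT with 5-ALA than without it, and Cry2 was not called. On the log2(TPM + 1) scale Nr1d1 and Dbp were still called, at 0.66 and 0.63. The genes whose exons overlap theirs were higher too, Thra (log2 0.23, edgeR adjusted p = 0.00132) and Sphk2 (0.54, 1.33e-05). Both were also called on the log2(TPM + 1) scale, at 0.20 and 0.48.

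Of the 9 tested genes 4 were called higher and 1 lower, where 62.3% of all genes tested were called, 33.3% higher and 29.0% lower. The libraries did not overlap for 5 of the 9 and for 65.9% of all genes. Per2 was called higher (log2 0.40, adjusted p = 0.00556), a call lost in edgeR without WT estradiol replicate 1 (adjusted p = 0.0691) or 5-ALA replicate 1 (0.0658) and in limma on the log2(TPM + 1) scale (0.195). Per1 was called higher by edgeR (log2 0.12, adjusted p = 0.00914) and not by DESeq2 (adjusted p = 0.127). Per3, Clock and Arntl had log2 fold changes of 0.07, 0.03 and 0.05 and were not called. The median over the 9 genes was 0.07 and over all genes 0.01 (quartiles -0.27 and 0.29).

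The abundance-weighted transcript length varied for 7 of the clock genes. It depends on how counts are divided among the transcripts of a gene, so it is not independent of them. Clock and Arntl have 1 transcript in the tables. With 3 against 3 libraries an exact permutation test cannot go below p = 0.1, and over the 28 tests made the smallest Benjamini-Hochberg adjusted p was 0.400, so none passed. With estradiol in WT cells the mean length went from 3564 to 4161 bases for Per1, from 4948 to 5271 for Per3 and from 4218 to 4388 for Nr1d2. For Dbp it was 1223 bases in mutant cells against 981 in WT cells with estradiol, and 1135 with 5-ALA. How often lengths differ as much among all genes was not computed. Longer average transcripts lower the TPM for the same count, and for Per2 a part of the counts of mutant replicate 2 was assigned to a short transcript. Its TPM there was 1.72 against 1.08 and 1.01 in the other mutant libraries, although its CPM, 3.79, was close to their 3.60 and 3.41.

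**Figure D4:**
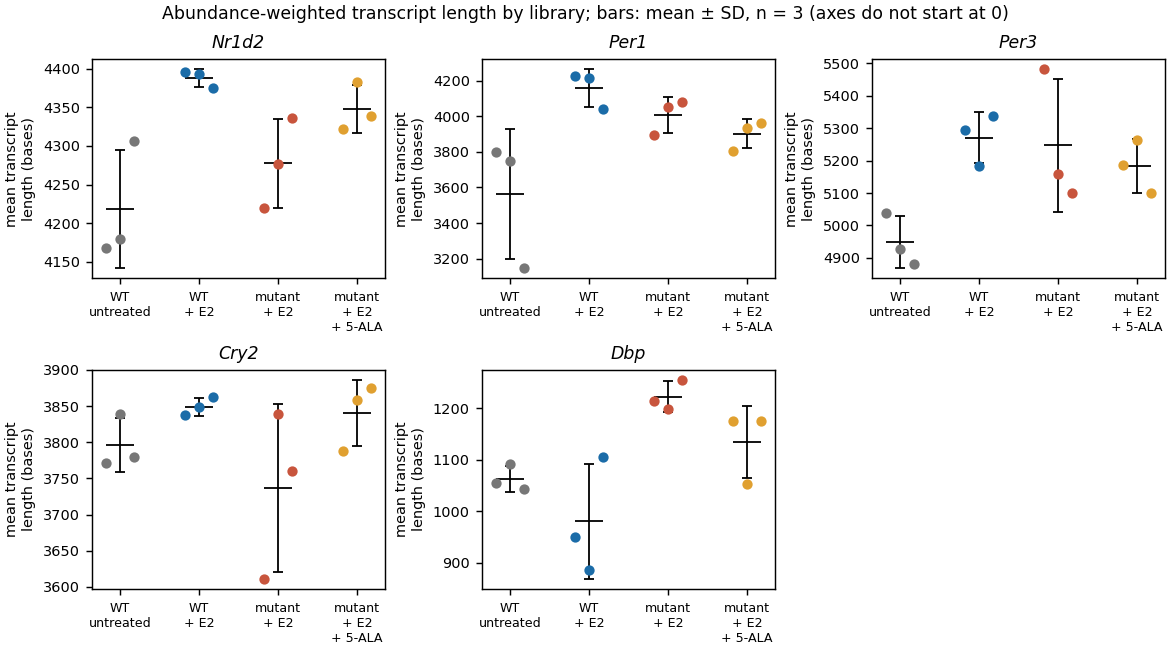
Abundance-weighted mean transcript length in bases (axes do not start at 0) of 5 clock genes with more than 1 transcript, by library, with the mean ± SD of each group of 3 (E2, beta-estradiol). For Per1, Per3 and Nr1d2 all 3 estradiol-treated WT libraries lie above the untreated ones, and for Dbp the mutant libraries lie above the WT libraries with estradiol.

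Other genes of the loop mostly had few counts. Of 9 further core genes only Rorb, Ciart, Timeless and Tipin had enough counts to be tested. The counts of called genes in this list and the 4 lists below stand beside the shares of all genes tested. These shares were 89.7% with estradiol, 68.8% in mutant against WT cells, 42.6% with 5-ALA and 62.3% in the last comparison. No count is read as a result about a list. Bhlhe40 had a mean of 0 CPM in every group, and Npas2, the heme-binding relative of Clock, reached at most 0.101 CPM. As for Cry1, whether reads of Bhlhe40 were lost in counting is not shown. With estradiol in WT cells 1 of the 4 was higher, Rorb, which encodes a ROR receptor (0.714 against 0.374 CPM), and 3 were lower. Timeless and Tipin, whose products also act together at replication forks, went from 113 ± 0.874 to 3.82 ± 0.508 CPM (log2 -4.90, adjusted p = 3.66e-31) and from 135 ± 1.52 to 9.48 ± 0.0949 CPM (log2 -3.83, adjusted p = 2.64e-34). Ciart, a repressor of CLOCK and BMAL1, fell too (log2 -1.80). In mutant against WT cells only Tipin was called (log2 0.34). With 5-ALA Tipin was lower (log2 -0.32) and Ciart higher (0.65, adjusted p = 0.0285), and against WT cells with estradiol, Ciart was the 1 gene called in mutant cells with 5-ALA (0.74, adjusted p = 0.0105). The calls of Ciart with 5-ALA and of Rorb with estradiol were lost on the log2(TPM + 1) scale (limma adjusted p = 0.343 and 0.211), and that of Ciart also with DESeq2 (adjusted p = 0.0776). Both genes were chosen after their values were seen.

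Of 6 output genes 4 were tested, and Hlf and Nfil3 had a mean of at most 0.0118 CPM. Nfil3 was at 0 CPM in every group, with the same limit as Bhlhe40. With estradiol 2 rose and 2 fell. Tef, a D-box activator related to Dbp, went from 62.2 to 267 CPM (log2 2.11), and Noct, which encodes nocturnin, from 464 to 2008 CPM (log2 2.11). Wee1, a kinase that holds back mitosis, had a log2 fold change of -3.45 and the protease gene Usp2 of -2.27. The D-box activators therefore went opposite ways with estradiol, Tef higher and Dbp lower, and Tef was the more abundant. In mutant against WT cells Tef was higher (418 ± 3.11 against 267 ± 7.03 CPM, log2 0.64), as Dbp was, and Noct and Usp2 were lower (-0.30 and -0.99, the latter from 0.794 to 0.409 CPM and not called on the TPM scale). Usp2 is given for the mutant cells after its values were seen. With 5-ALA only Tef was called, lower by a small margin (log2 -0.11). Against WT cells with estradiol, 1 output gene was higher in mutant cells with 5-ALA, Tef (0.53), and 2 were lower, Noct (-0.27) and Usp2 (-0.64, not called by DESeq2 or on the TPM scale). With 5-ALA in mutant cells, 3 output genes were called lower on the log2(TPM + 1) scale, on which 5704 of all 12115 genes were.

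Kinases and ubiquitin ligases that set the turnover of PER and CRY proteins included 5 tested genes of 7. With estradiol 4 rose and 1 fell, or 3 and 2 on the log2(TPM + 1) scale, where Csnk1a1 turned from 0.09 to -0.29. Fbxw11, a subunit that selects targets for a ubiquitin ligase, rose from 59.4 ± 3.09 to 134 ± 1.41 CPM (log2 1.17, adjusted p = 7.29e-25), and the casein kinase gene Csnk1d from 151 ± 3.19 to 294 ± 8.59 CPM (log2 0.97, adjusted p = 1.95e-25). Btrc, a relative of Fbxw11, fell (-0.40). In mutant against WT cells 2 were higher, Gsk3b (log2 0.41) and Btrc (0.19), and 2 were lower, Fbxw11 (-0.32) and Csnk1d (-0.23), or 3 and 1 on the log2(TPM + 1) scale, where Csnk1d was not called. With 5-ALA only Btrc was called, lower (-0.18), but on the log2(TPM + 1) scale, on which 5704 of all 12115 genes were called lower and the median moved by -0.194, all 5 were. Against WT cells with estradiol, 1 was higher in mutant cells with 5-ALA, Gsk3b (0.34), and 2 were lower, Fbxw11 (-0.29) and Csnk1d (-0.24). Csnk1a1, Btrc outside the 5-ALA comparison, and Csnk1d in the mutant cells are given after their values were seen.

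Genes of the NR1D corepressor complex were all 5 tested. With estradiol Ncor1, the scaffold, rose from 277 ± 6.86 to 802 ± 0.990 CPM (log2 1.54), Gps2 rose (log2 0.33, not called on the TPM scale), and Hdac3, the deacetylase, fell from 62.7 ± 0.920 to 28.4 ± 1.87 CPM (log2 -1.13), as did Tbl1x and Tbl1xr1. In mutant cells Tbl1xr1 was at 33.4 ± 1.55 CPM against 73.7 ± 1.08 CPM in WT cells with estradiol (log2 -1.14, adjusted p = 5.10e-21). Ncor1 was lower too, and Hdac3, Tbl1x and Gps2 were higher (Gps2 log2 0.32). With 5-ALA, Tbl1xr1 was at 33.0 ± 1.70 CPM and was not called against mutant cells without it (adjusted p = 0.747), and only Gps2 (-0.19) and Tbl1x (0.08) were. On the log2(TPM + 1) scale Tbl1x turned to -0.11 and all 5 were called lower, where the median of all genes moved by -0.194. Against WT cells with estradiol, 3 were higher and 2 lower in mutant cells with 5-ALA, with Tbl1xr1 at -1.16 and Tbl1x at 0.35.

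Among 9 other heme-binding or heme-handling regulators, 8 were tested. All 8 were called by edgeR in the first 2 comparisons, where 89.7% and 68.8% of all genes tested were. With estradiol 4 rose and 4 fell, with Bach1, a repressor that heme inactivates, and Hmox1 at log2 fold changes of 5.05 and 4.64. In mutant against WT cells 4 were higher and 4 lower, with Hmox1 at -3.39 and Alas1, the ALA synthase found in all cell types, at 0.83, and on the log2(TPM + 1) scale, where Bach1 turned from -0.09 to 0.11, 5 were higher and 2 lower. With 5-ALA 4 were higher and 3 lower, with Hmox1 at 2.51 and Alas1 at -0.98, and on the log2(TPM + 1) scale 2 were higher and 5 lower. The gene Pgrmc1, of a heme-binding membrane protein, had 45.3 CPM in mutant cells and 69.7 CPM with 5-ALA (log2 0.61), and Pgrmc2, whose product carries heme to the nucleus, was not called (-0.02). Pgrmc1 and Pgrmc2 were chosen after their values were seen. Against WT cells with estradiol, 5 were higher and 2 lower in mutant cells with 5-ALA, with Hmox1 at -0.88 and the heme-binding protein gene Hebp1 at 0.47.

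**Figure D5:**
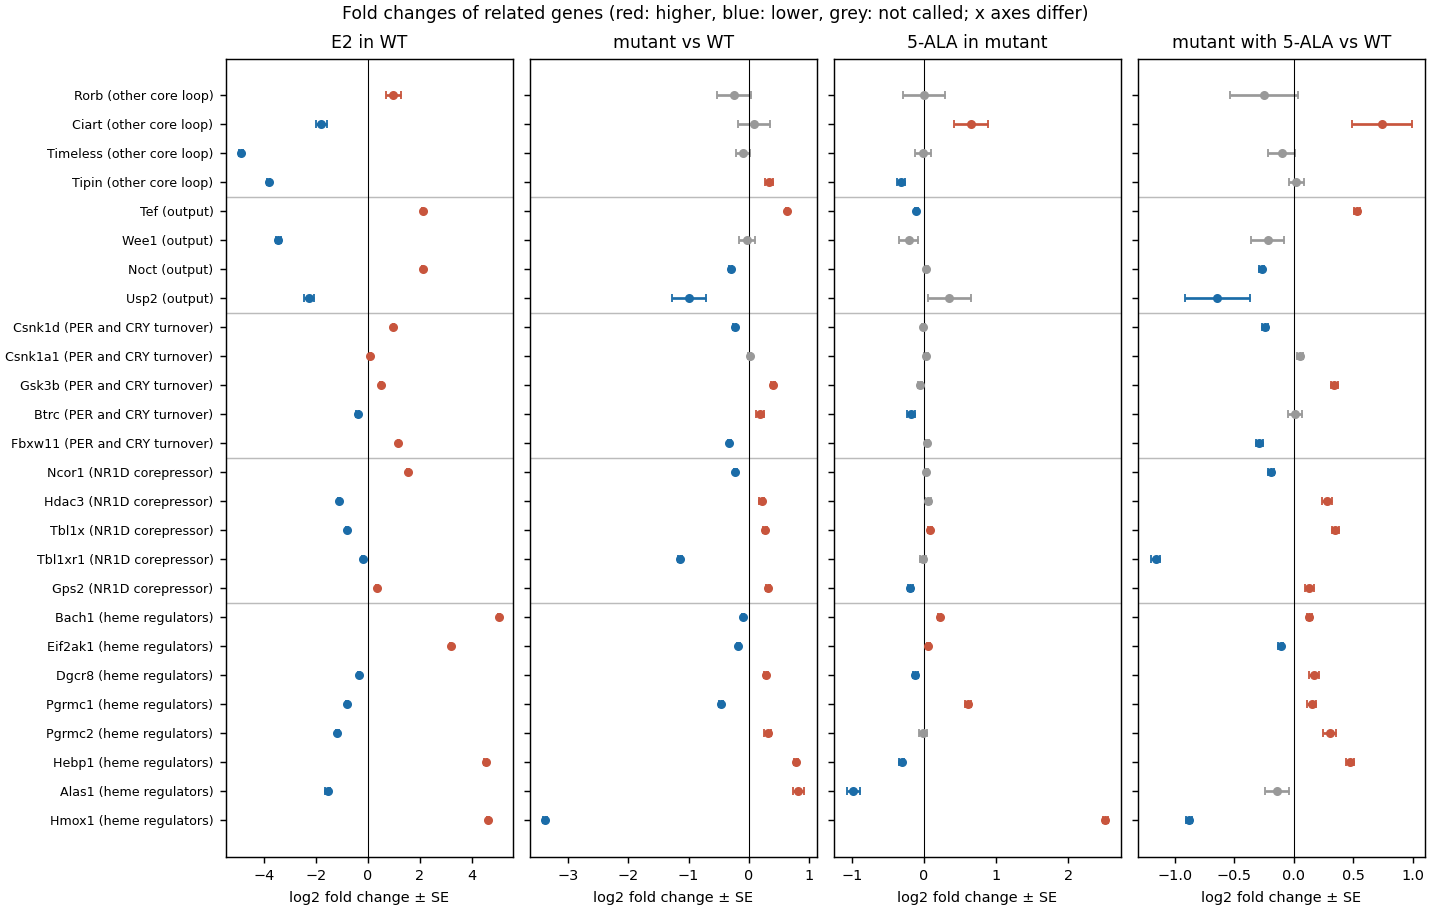
Log2 fold changes (± SE, horizontal axes differ between panels) of the tested genes of the 5 related lists, in the 4 comparisons, with genes called higher in red, called lower in blue and not called in grey (E2, beta-estradiol). Timeless (-4.90) and Bach1 (5.05) mark the ends of the first panel, Hmox1 (-3.39) and Alas1 (0.83) those of the second, and Alas1 (-0.98) and Hmox1 (2.51) those of the third.

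The genes whose pattern was most like that of each receptor gene were found among 7718 genes with at least 10 CPM, by the Euclidean distance of log2 CPM centred on each gene's mean over the 12 libraries. For Nr1d1 they were Slc3a2, an amino acid transporter chain (distance 0.49, Pearson's r 0.943), the adaptor gene Fyb (0.51, 0.958) and Cyb5r1, a cytochrome b5 reductase gene (0.57, 0.922). Slc3a2 had 324, 151, 205 and 274 CPM in the 4 groups, low in WT cells with estradiol and higher again with 5-ALA, as Nr1d1 was. For Nr1d2 they were Twsg1 (distance 0.19, r 0.999), Supt4a (0.19, 0.998) and Clk1 (0.20, 0.998). Twsg1 had 46.7, 257, 166 and 186 CPM. These are descriptions, since the 12 libraries fall into 4 groups of 3 and are not 12 separate conditions.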

How the data were processed

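Each of the 12 libraries has a table of 25097 genes. Per the file headers, the deposited tables hold RSEM expected counts (reads per gene, with shared reads divided by a model), TPM (scaled by the authors per transcript length) and a mean transcript length in bases, weighted by abundance. RSEM 1.2.20, Bowtie 1.1.1, CASAVA 1.8.2 and build mm10 are named in the submitters' processing notes. Per the labels' protocols, TruSeq libraries were made from TRIzol-purified total RNA. Read length, annotation release and strand setting were not given in the sources used here. Symbols, positions and exon overlaps came from GENCODE M21 (mm10), which named 24746 genes.

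Expected counts were rounded, filtered with filterByExpr (12115 genes) and scaled by TMM. R 4.3.3 with edgeR 4.0.16 then fitted a mean for each of the 4 groups, with robust quasi-likelihood F tests and Benjamini-Hochberg adjustment over all tested genes. A gene is called at an adjusted p below 0.05, and only then said to rise or fall. The SE is approximate, the size of the log2 fold change divided by the root of F. TPM was used for levels and for limma 3.58.1 on log2(TPM + 1) and log2(TPM + 0.1), which understates changes of low genes. DESeq2 1.42.0, other filters and scalings, a replicate block and leaving out each library were the other alternatives. The fit was tested on simulated data. In mutant and WT cells with estradiol, the 3 same-numbered pairs of libraries deviated together from their group means (r 0.212 to 0.388, against -0.263 to 0.056 for different numbers). Differently numbered libraries of untreated WT and mutant cells, however, reached r 0.449. Such values therefore do not show that the numbers pair libraries, and the labels state no pairing. All 10 clock genes are named, with genes whose exons overlap theirs, Alas2, Hmox1, Gata1, up to 2 called genes per related list and comparison with at least 1 CPM, and 3 genes most like Nr1d1 and Nr1d2. Gata1 stood at 444 ± 3.87, 868 ± 11.7, 722 ± 11.3 and 715 ± 24.5 CPM in the 4 groups. The clock genes and lists were chosen with earlier results of these data known. Of the related lists, 2 genes are not reported here and are not in the counts.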

Additional observations from a re-analysis of the deposited data

How the results depend on the processing

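With estradiol in WT cells, all 126 recomputed log2 fold changes of the 9 clock genes kept their direction and side of the threshold. The same held for 123 of 135 in mutant against WT cells, 104 of 126 with 5-ALA, and 116 of 126 between mutant cells with 5-ALA and WT cells. On log2(TPM + 1) and log2(TPM + 0.1), the median of all genes moved by -0.272 and -0.285, 0.189 and 0.195, -0.194 and -0.202, and -0.008 and -0.007 in the 4 comparisons. On these scales, genes called lower in mutant cells numbered 2331 and 2312 against 4076, and genes called with 5-ALA numbered 806 and 789 higher against 2620, and 5704 and 5649 lower against 2543. Clock genes called higher with 5-ALA were 2 and 2 against 5, Nr1d1 and Cry2. The number called lower with 5-ALA, 2, went to 3 and 3 on these scales, to 1 with DESeq2 and to 1 with only the 2 groups fitted, and ranged from 0 to 2 when libraries were left out. Signs turned on the 2 TPM scales for Per1 (0.11 and 0.12) and Per3 (0.08 and 0.09) in mutant against WT cells, and for Nr1d2 (-0.01 and -0.01) and Per2 (-0.19 and -0.33) with 5-ALA. Leaving out libraries gave -0.10 to 0.11 for Per2 with 5-ALA. In mutant cells with 5-ALA against WT cells it gave -0.01 to 0.02 for Cry2 and -0.01 to 0.09 for Clock, and with no low-count filter Cry2 had 0.01. The cause of these changes was not tested.

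With the replicate number as a block, the numbers of clock genes called were the same in each comparison (5 higher and 4 lower, 4 and 3, 5 and 2, and 4 and 1), and genes called higher with estradiol numbered 5215 against 5243. In mutant against WT cells, where same-numbered libraries deviated together, a block was fitted on those 2 groups alone, added after seeing the data. It changed no call of a clock gene and called 4258 genes higher and 3968 lower. In the other comparisons same-numbered libraries deviated with r from -0.248 to 0.327, not all over 0.1. Whether same-numbered libraries share more than a number is not stated in the labels for any comparison. Nr1d1 had the fewest counts of the tested clock genes, 26 to 118 per library.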

Other observations

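Ratios between the clock genes, chosen after their values were seen, are given as levels per length (TPM) with no test. The summed level of the 3 period genes was 21.0 ± 0.774 TPM in untreated WT cells and 21.2 ± 0.327 TPM in WT cells with estradiol, although its makeup differed. In CPM, which is not scaled for length, the sum was 51.8 ± 1.49 and 63.1 ± 0.132, so the near-equal sums hold on the TPM scale alone. Per2 made up 38.0, 37.3 and 32.7% of it in the untreated libraries and 2.97, 3.62 and 3.76% in the estradiol libraries. The share of Per1 was 47.6 ± 3.50% and 69.3 ± 0.871%, and that of Per3 16.3 ± 0.671% and 27.3 ± 1.23%. In mutant cells the summed level was 23.4 ± 0.873 TPM, and with 5-ALA 24.1 ± 0.627 TPM.

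Arntl stood at 2.00, 2.04 and 2.10 times the TPM of its partner Clock in untreated WT cells and at 0.723, 0.671 and 0.630 times in WT cells with estradiol. In mutant cells the ratio was 0.670 ± 0.0540 and with 5-ALA 0.687 ± 0.0314, so that the 3 estradiol groups overlapped. The ratio of Nr1d2 to Nr1d1 behaved otherwise. It was 5.59, 6.43 and 5.11 in untreated WT cells, 69.6, 57.1 and 68.2 in WT cells with estradiol, 34.9, 23.5 and 30.9 in mutant cells, and 22.8, 20.5 and 19.6 with 5-ALA. No 2 groups overlapped in it. The summed level of both receptor genes was 12.7 ± 0.231, 44.7 ± 1.64, 35.9 ± 1.84 and 36.2 ± 0.960 TPM in the same order, most of it from Nr1d2.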
